A study of Mus musculus with 4 samples.

Results

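The genes described here are 8 genes of matrix turnover, among the 31053 genes counted in the series. They are the matrix metalloproteinases Mmp13, Mmp12, Mmp14, Mmp9 and Mmp19, the matrix proteins Spp1 (osteopontin) and Fn1 (fibronectin), and the protease inhibitor Timp2. They were picked by symbol, with their responses in macrophages already known, so their values in macrophages are given as a description, with no p. How many of them passed the threshold there is counted once, beside the share of all genes that did, and nothing is read from it. All 8 had at least 1 unique molecular identifier (UMI, the tag that marks 1 captured transcript) in the cells kept for analysis.

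Matrix metalloproteinases are zinc-dependent enzymes that cut collagens, elastin and other proteins between cells. Most are secreted as inactive precursors and cleared or blocked by tissue inhibitors such as Timp2. In adipose tissue, fibroblast-like stromal cells lay down most of the collagen and fibronectin around adipocytes, and resident macrophages supply several of the enzymes that take it apart.

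The cells were GFP+ live singlets sorted from the stromal vascular fraction of subcutaneous inguinal white fat of male ChAT-eGFP mice, a line in which a bacterial artificial chromosome drives eGFP from the Chat locus. All mice were 5 weeks old at the start and spent 3 weeks at 30 °C (thermoneutrality). They were then kept at 30 °C, or moved to room temperature for 24 h and then to 4 °C for 4 h (cold), so that the step at room temperature cannot be told apart from the cold. Each of the 4 libraries, 2 for each temperature, pooled 4 mice, and unsorted or GFP-negative cells were not analysed here. The libraries held 6272 to 6883 cells and 76058112 to 84468931 UMIs, of which 5191 to 5388 cells passed the filters, and 5 to 14 of those cell barcodes were found in both libraries of a pair.

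Cell types were named from marker genes, as macrophage-like, dendritic-like and so on, and the suffix is left out below. The dendritic cells are a cluster with Fscn1 and Ccl22, genes of mature dendritic cells, among its leading genes.  Macrophages numbered 175 and 198 at 30 °C and 474 and 187 at 4 °C, and 4 °C replicate 1 stood apart, with 8.89% of its cells in this class against 3.37% to 3.67% in the other 3 libraries. They were grouped by their own UMIs of Folr2, a folate receptor of resident macrophages, and of Itgax (CD11c) or Trem2, genes of lipid-associated macrophages. Folr2-positive cells without the other genes numbered 110 and 125 at 30 °C and 304 and 99 at 4 °C, and those positive for Itgax or Trem2 alone 16, 21, 57 and 32. The rest had both (20, 24, 55 and 35) or neither (29, 28, 58 and 21). Levels are in CPM, the UMIs of the gene for every 1000000 UMIs of that cell type in that library. The summed macrophage markers stood at 20275 to 22255 CPM in macrophages and at 36.8 to 69.8 in dendritic cells. A level weighs 1 cell with many UMIs like many cells with few, so the number of cells is given beside it. In unsupervised subclusters the Folr2-led cells parted by temperature, with 119 and 147 cells of 1 subcluster from 30 °C and none from 4 °C, and 351 and 123 of the other from 4 °C and 4 in all from 30 °C.

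The cell type with the highest level differed between genes, and several genes shared one. By the mean over the 4 libraries in the 16 cell types plotted, Mmp13 and Mmp9 were highest in Folr2-positive macrophages, Mmp12, Mmp19 and Spp1 in Itgax or Trem2 positive macrophages, and Mmp14, Fn1 and Timp2 in stromal cells. For Spp1 and Timp2 the cell type with the highest level did not hold the most UMIs. Of the Spp1 UMIs, B cells held 38.5% and Itgax or Trem2 positive macrophages 9.17%. Of the Timp2 UMIs, αβT cells held 32.3% and stromal cells 12.1%. Dendritic cells held few UMIs of any of the genes, from 2 for Mmp13 and Spp1 to 70 for Timp2.

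**Figure D1:**
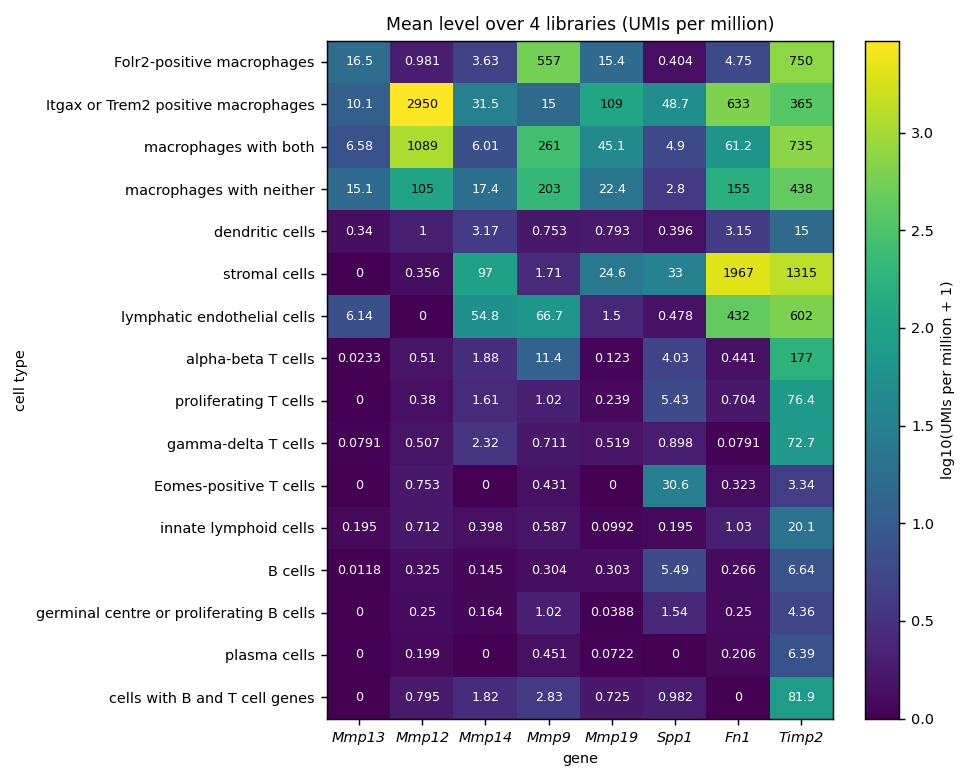
Heat map of the mean level over the 4 libraries (CPM, printed in each field, colour on a log10 scale) of the 8 genes (x axis) in 16 cell types (y axis). Mmp12 reached 2950 CPM in Itgax or Trem2 positive macrophages and 0.98 in Folr2-positive ones, while Fn1 reached 1967 in stromal cells.

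Mmp13 (chr9:7272514-7283331 on GRCm38, plus strand) encodes collagenase 3, which cuts fibrillar collagen, and Mmp12 (chr9:7344381-7369499, plus strand) encodes macrophage elastase. The 250 bases before the start of Mmp13 (chr9:7272264-7272513, plus strand) and before the second of the RefSeq starts of Mmp12 (chr9:7347124-7347373, plus strand) are shown, since these were the windows of the members that held the AP-1 letters TGACTCA or, on the other strand, TGAGTCA, in capitals. The sequences are from a set of RefSeq promoters on GRCm38.p6. The set used here held 5 of the 8 genes and lacked Mmp9, Mmp19 and Fn1.
Mmp13: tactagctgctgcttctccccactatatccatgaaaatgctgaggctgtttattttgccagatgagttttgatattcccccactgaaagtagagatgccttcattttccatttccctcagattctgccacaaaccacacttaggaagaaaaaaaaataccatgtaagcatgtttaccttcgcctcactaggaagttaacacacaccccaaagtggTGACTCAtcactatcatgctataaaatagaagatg
Mmp12: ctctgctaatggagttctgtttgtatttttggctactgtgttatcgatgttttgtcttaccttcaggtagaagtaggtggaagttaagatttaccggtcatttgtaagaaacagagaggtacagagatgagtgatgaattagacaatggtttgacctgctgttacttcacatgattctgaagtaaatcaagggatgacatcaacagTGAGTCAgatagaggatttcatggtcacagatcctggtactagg
The first base of the letters stood at -35 from the start of Mmp13 and at -44 from that of Mmp12. The first start of Mmp12 and the windows of Mmp14, Spp1 and Timp2 did not hold them, and neither TGACTCA nor TGAGTCA was common, with 4.46% of 32851 such windows holding either. The cAMP response element letters TGACGTCA, which 1.55% of the windows held, were in none of the windows of these 5 genes. A match of letters is a description and not a site of binding.

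Mmp13 was almost absent at 30 °C and present in both libraries at 4 °C. In all macrophages it had 1 and 0 UMIs at 30 °C and 102 and 49 at 4 °C, or 0.56, 0, 24.4 and 27.4 CPM. Both cold libraries lay far above both warm ones, by a ratio of 96.0 in summed counts, with an interval from 17.0 to 3817 that covers counting error only. The fitted difference was 6.30 ± 0.57 (log2 ± SE), and it lay between 5.36 and 9.07 when each library was left out in turn, since it turns on the 1 UMI of 30 °C replicate 1. This SE was worked back from the test statistic and is smaller than that counting interval implies.

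Folr2-positive macrophages, 638 of the 1034 macrophages, held 100 of the 152 Mmp13 UMIs in macrophages and of the 183 in all cells. They had none at 30 °C in either library, where 3 counts would have been 2.87 and 2.60 CPM, and 68 and 32 at 4 °C (27.1 and 38.9 CPM). Against a floor of 3 counts over the group the level at 4 °C was 22-fold higher. The lower limit of the interval of the ratio, which covers counting error only, was 17.6. Few cells carried it. At 4 °C 9.21% (95% interval 6.21 to 13) and 10.1% (4.95 to 17.8) of Folr2-positive macrophages had a Mmp13 UMI, with at most 7 in a cell, and in B cells, which do not make this collagenase, 1 cell of 8273 did, at a median depth of 7756 UMIs against 8402. With every cell thinned to 3002 UMIs the shares were 0% and 0% at 30 °C and 5.28% and 10.5% at 4 °C, with 7 and 9 warm and 20 and 13 cold cells left out as too shallow.

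By subcluster instead of by gene, a small subcluster of proliferating macrophages had the highest mean level of Mmp13, 44.6 CPM. It rested on 7 and 10 UMIs in 2 cells of each cold library, of 25 and 4 cells, and none in the 17 and 11 cells at 30 °C. The subclusters led by Folr2 had 0 and 0 UMIs at 30 °C and 91 and 35 at 4 °C, or 31.4 and 31.3 CPM in the cold.

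In the smaller Itgax or Trem2 positive group Mmp13 had 1 UMI at 30 °C and 9 in each cold library, but the latter stood in 3 cells and 1 cell. Macrophages with both genes had none at 30 °C and in the cold libraries 5 and 8, and those with neither had 20, all in 4 °C replicate 1. These 20 stood in 8 of 58 cells (13.8%), at 60.5 CPM against 27.1 in the Folr2-positive macrophages of that library. Outside the macrophages, 1 lymphatic endothelial cell at 4 °C held 6 UMIs, dendritic cells held 1 in each cold library, and stromal cells held none.

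Mmp9 (chr2:164940780-164955850, plus strand), the gelatinase that cuts basement membrane and denatured collagen, was in contrast present at both temperatures. In Folr2-positive macrophages it stood at 488 and 438 CPM at 30 °C and 622 and 681 at 4 °C. Both cold libraries were above both warm ones, and the fitted difference was 0.44 ± 0.12 (log2 ± SE), between 0.36 and 0.52 without each library in turn. A UMI was found in 77.3% and 75.2% of these cells at 30 °C and in 84.9% and 76.8% at 4 °C, and these shares overlapped. With every cell thinned to 3002 UMIs they were 58.3% and 55.2% at 30 °C and 73.6% and 69.8% at 4 °C, and did not overlap. In B cells the share was 0.0457% to 0.575%.

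Itgax or Trem2 positive macrophages held little Mmp9, with 4.61 and 27.4 CPM at 30 °C and 22.8 and 5.08 at 4 °C. Those with both genes were between, at 149 and 169 against 347 and 381 CPM, and those with neither at 112 and 203 against 212 and 287. Neutrophils are a known source of Mmp9. Of 5 neutrophil genes, S100a9, Retnlg and Mmp8 were at 0 in Folr2-positive macrophages and S100a8 and Csf3r were not, and the 5 summed to 10.4 to 23.5 CPM. They summed to 10.3 to 40.6 CPM in the Itgax or Trem2 positive group and to 12.1 to 4625 in macrophages with neither gene, where 4 cells had both S100a8 and S100a9. Retnlg was also among the 10 leading genes of the subcluster led by Itgax or Trem2, at 99.9 CPM. The part of neutrophil RNA in the Mmp9 levels was not tested.

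Among other cells, Mmp9 was found in αβT cells at 10.3 and 10.4 CPM at 30 °C and 11 and 13.9 at 4 °C. The difference was 0.22 ± 0.16 (edgeR adjusted p = 0.438), so it did not exceed the spread between libraries. It was higher in αβT cells with a UMI of Foxp3, the regulatory T cell factor, at 13.4, 14.9, 18.0 and 22.8 CPM, than in those without, at 6.43, 5.97, 4.50 and 5.97. In these libraries all 4 levels with Foxp3 were above all 4 without, a comparison made after the values were seen. Lymphatic endothelial cells had 26.8 and 44.4 at 30 °C and 68.6 and 127 at 4 °C, from 1 to 5 cells a library, and dendritic cells 3 UMIs in all.

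Mmp9 was found in Folr2-positive macrophages with and without Mmp13. At 4 °C, 32 of the 38 Folr2-positive macrophages with a Mmp13 UMI also had Mmp9 (84.2%), against 82.7% of those without Mmp13, at median depths of 9189 and 7880 UMIs. None of those 38 cells had a Mmp12 UMI, but of all Folr2-positive macrophages at 4 °C only 2 of 304 and 1 of 99 did. With so few, this does not tell whether the genes avoid each other.

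**Figure D2:**
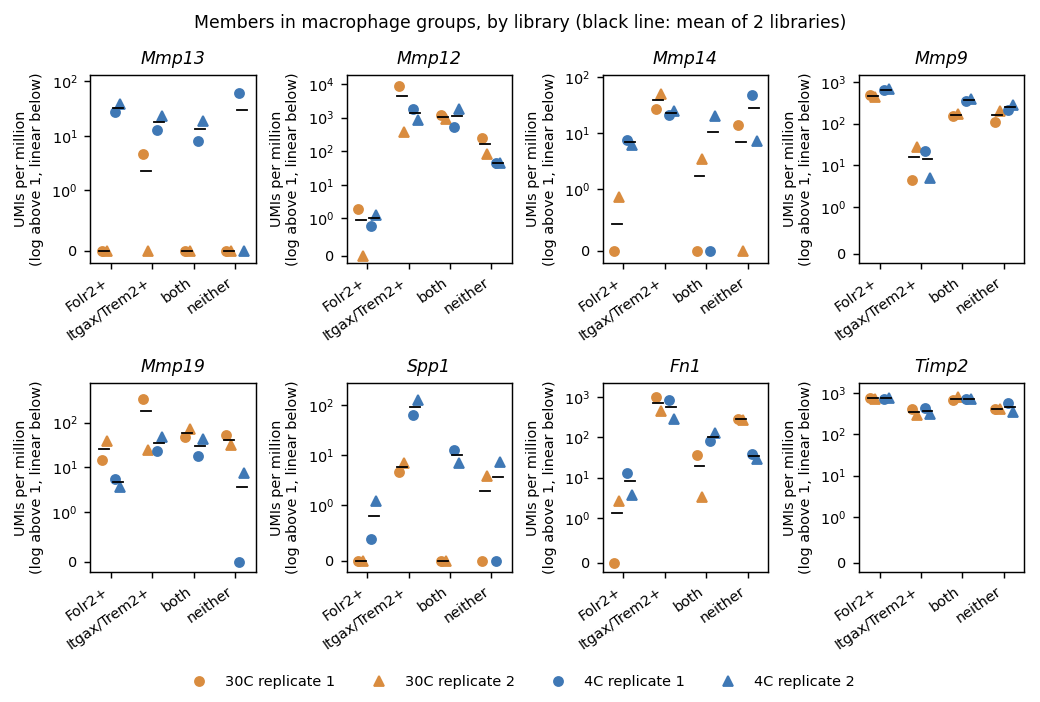
Level of each gene (CPM, log scale above 1) in macrophages positive for Folr2, for Itgax or Trem2, for both and for neither, for the 2 libraries at 30 °C (orange) and the 2 at 4 °C (blue), with black lines at the means. Mmp13 stands at 0 in both warm libraries and at 27.1 and 38.9 CPM in both cold libraries of Folr2-positive macrophages, while the Mmp12 libraries of Itgax or Trem2 positive macrophages overlap.

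Mmp12 was found almost entirely in macrophages with Itgax or Trem2. Those positive for Itgax or Trem2 alone held 65.3% and those with Folr2 as well 31.3% of its 5532 UMIs, and Folr2-positive cells 0.09%. Its level in the Itgax or Trem2 positive group was 8747 and 377 CPM at 30 °C and 1799 and 876 at 4 °C. The cold libraries lay between the 2 warm ones, so the temperatures overlapped. The fitted difference of -1.84 ± 1.00 (log2 ± SE) turned to 1.67 without 30 °C replicate 1, where 1 cell held 606 of the 1896 UMIs and the 5 highest cells 98.7%.

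The share of cells with Mmp12 was 62.5% and 38.1% at 30 °C and 33.3% and 25% at 4 °C. These rest on 10 of 16, 8 of 21, 19 of 57 and 8 of 32 cells, with intervals of 35.4 to 84.8, 18.1 to 61.6, 21.4 to 47.1 and 11.5 to 43.4%. After thinning to 3002 UMIs a cell they were 43.8%, 30.0%, 26.0% and 24.1%. Both cold shares were below both warm ones by either count, and all 4 intervals overlapped. In the subcluster led by Itgax or Trem2 the shares were 50% and 41.4% at 30 °C and 39.7% and 43.2% at 4 °C, and the temperatures overlapped.

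This group also held cells with dendritic genes. A UMI of Xcr1, Clec9a or Flt3, genes of conventional dendritic cells, was in 12.5%, 33.3%, 17.5% and 28.1% of it. Without such cells the Mmp12 difference was -1.46 and that of Spp1 3.86. In the cluster of mature dendritic cells Mmp12 had 0, 0, 4 and 2 UMIs, which does not tell whether conventional dendritic cells hold it. The share of macrophages that were positive for Itgax or Trem2 alone was 9.14% and 10.6% at 30 °C and 12% and 17.1% at 4 °C, or 9.87 ± 1.03% against 14.6 ± 3.60% (SD, n = 2). The difference of 4.69 points had p = 0.333 by a two-sided exact permutation test, the smallest that 2 libraries against 2 allow, and 3.09 points with p = 1 (exact) when the groups were taken from subclusters.

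Mmp19 (chr10:128790910-128800824, plus strand), a secreted metalloproteinase that acts on basement membrane proteins, was lower at 4 °C in macrophages. Its level was 64.4 and 39.9 CPM at 30 °C and 9.82 and 23.5 at 4 °C. Both cold libraries were below both warm ones, with a fitted difference of -1.88 ± 0.36 (log2 ± SE), from -2.45 to -1.18 without each library in turn. The share of macrophages with a UMI went the same way, at 17.7% and 14.1% against 5.91% and 9.63%.

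In Folr2-positive macrophages Mmp19 had 15 and 44 UMIs at 30 °C and 14 and 3 at 4 °C, or 14.3, 38.1, 5.57 and 3.65 CPM. Of the 44, 23 stood in 1 cell. The difference of -2.43 ± 0.47 was -1.74 with the highest cell of each library left out and -1.54 without 30 °C replicate 2. In the Itgax or Trem2 positive group the levels were 341, 24, 22.8 and 48.3 CPM and overlapped, and the difference of -2.46 ± 0.89 was 0.30 without 30 °C replicate 1.

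Stromal cells showed the opposite order. Mmp19 had 6 and 4 UMIs at 30 °C and 28 and 14 at 4 °C, or 12.1, 10.5, 39.9 and 36.1 CPM. Both cold libraries were above both warm ones, but the difference of 1.76 ± 0.44 did not pass the threshold over all genes (edgeR adjusted p = 0.151, unadjusted p = 0.00377). It lay between 1.64 and 1.88 without each library in turn, and cells with a UMI were 6 of 63, 3 of 44, 15 of 69 and 9 of 41. Stromal cells were deeper in the cold libraries, at medians of 10766 and 9191 UMIs against 5288 and 8249, and were not thinned. B cells stood at 0.099 to 0.42 CPM and dendritic cells held 4 UMIs in all.

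Mmp14 (chr14:54431612-54445364, plus strand) encodes a metalloproteinase anchored in the cell membrane that activates the precursor of Mmp2. Its highest level was in stromal cells, with 70.4 and 103 CPM at 30 °C and 104 and 111 at 4 °C. The cold libraries were both higher, but by 0.36 ± 0.29, which did not exceed the spread (edgeR adjusted p = 0.705). Lymphatic endothelial cells had 38.3, 72.7, 42.9 and 65.5 CPM, which overlapped, and a UMI in 31.6% to 56.5% of cells.

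Macrophages had 9 and 17 Mmp14 UMIs at 30 °C and 50 and 25 at 4 °C, in 2.02% to 5.88% of cells. In CPM these were 5.04, 8.48, 12 and 14.0, both cold libraries higher, with a difference of 0.84 ± 0.36. It was 1.89 with the highest cell of each library left out, and 2.15 in cells with less than 5% mitochondrial counts. Folr2-positive cells had 0 and 1 UMI against 19 and 5, in 6 cells, of which 1 held 16 UMIs. The Itgax or Trem2 positive group stood at 27.7 and 51.4 CPM at 30 °C and 21.4 and 25.4 at 4 °C, both cold libraries lower. These were 6, 15, 15 and 10 UMIs in 14 cells, and Mmp14 did not pass the filter on low counts there. The shares of cells with a UMI were 18.8% and 9.52% at 30 °C and 8.77% and 12.5% at 4 °C, and overlapped. Thinned shares were 18.8%, 10%, 2% and 3.45%, from 3, 2, 1 and 1 cells, and did not overlap. In the subcluster led by Itgax or Trem2 Mmp14 stood at 22.3 and 43.4 CPM at 30 °C and 53.2 and 29.1 at 4 °C. These levels overlapped between temperatures.

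Timp2 (chr11:118301069-118355740, minus strand), which binds and inhibits metalloproteinases and takes part with Mmp14 in activating Mmp2, was the most widely found of the 8 genes. In Folr2-positive macrophages it stood at 763 and 737 CPM at 30 °C and 726 and 774 at 4 °C, in 96.4% to 98.2% of cells. The libraries overlapped, with a difference of -0.05 ± 0.12 (log2 ± SE). The Itgax or Trem2 positive group was lower in every library, at 420, 294, 436 and 310 CPM, and also overlapped between temperatures.

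Stromal cells held Timp2 at 1231, 1434, 1094 and 1502 CPM and differed by 0.02 ± 0.26 (edgeR adjusted p = 0.987). In αβT cells it was at 161 and 167 CPM at 30 °C and 198 and 180 at 4 °C, both cold libraries higher, by 0.16 ± 0.07 (adjusted p = 0.170, and 0.026 without 4 °C replicate 2). Cells with a Foxp3 UMI were at 182, 190, 249 and 222 CPM and those without at 136, 144, 151 and 142, so that the 4 libraries of the first lay above those of the second. Dendritic cells were at 14.8, 21.8, 9.03 and 14.3 CPM, with a difference of -0.70 ± 0.39 (adjusted p = 0.464), above the 5.79 to 7.66 CPM of B cells in every library, and 9.73% to 21.7% of dendritic cells had a UMI against 4.64% to 6.56% of B cells. Dendritic cells were deeper, with a median of 13850 UMIs against 7756.

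Fn1 (chr1:71585520-71653200, minus strand), the fibronectin that cells bind through integrins, was mainly a stromal gene, with 65.4% of its 5697 UMIs in 217 cells. Its levels there were 1938 and 2212 CPM at 30 °C and 1529 and 2190 at 4 °C. They overlapped, with a difference of -0.09 ± 0.27 (edgeR adjusted p = 0.953). Lymphatic endothelial cells had 350 and 315 CPM at 30 °C and 523 and 540 at 4 °C, both higher in the cold, in 46, 23, 12 and 19 cells, and were not fitted here.

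In macrophages Fn1 belonged to the Itgax or Trem2 positive group, at 978, 431, 838 and 284 CPM in 25% to 37.5% of cells, and the temperatures overlapped. Folr2-positive macrophages had 0 and 2.60 CPM at 30 °C and 12.7 and 3.65 at 4 °C, both cold libraries higher, from 0, 3, 32 and 3 UMIs with 17 of the 32 in 1 cell. Of the 60 macrophages with Fn1 at 4 °C, 24 had Mmp12 (40.0%), against 5.82% of the others, at median depths of 11199 and 8252 UMIs. Of these 60 cells, 1 had Mmp13. The share with Mmp13 at 4 °C was 9.07% and 9.09% of all macrophages and 5.26% and 3.13% of the Itgax or Trem2 positive group. The difference was not tested. Macrophages with neither gene had Fn1 at 280 and 272 CPM at 30 °C and 39.3 and 29.4 at 4 °C, in 4, 5, 7 and 2 cells, with 55 of the 60 UMIs of the first library in 1 cell.

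Spp1 (chr5:104435118-104441050, plus strand) encodes osteopontin, a secreted protein that binds integrins and Cd44. Itgax or Trem2 positive macrophages had 1 and 2 UMIs at 30 °C and 43 and 48 at 4 °C, or 4.61, 6.85, 61.3 and 122 CPM. Both cold libraries were above both warm ones and the difference was 3.73 ± 0.67 (log2 ± SE), but the cells with a UMI were 1, 2, 7 and 3, and 1 cell of 4 °C replicate 2 held 44 of its 48. The ratio of summed counts was 14.1, with an interval from 4.67 to 69.6 that covers counting error only. Folr2-positive macrophages had 0, 0, 1 and 1 UMI.

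Outside macrophages the largest number of cells with a Spp1 UMI was in proliferating T cells, 46 of 1322, at a median depth of 18597 UMIs. The share was 2.8%, 3.99%, 4.3% and 2.5%, which overlapped between temperatures, against 0.137% to 0.532% of B cells. They held 41, 13, 22 and 54 UMIs, and the highest cell held 28, 1, 3 and 30. B cells had 147, 31, 202 and 15 UMIs, of which 1 cell held 136 in the first library and 196 in the third, while the 15 of the fourth stood in 12 cells. Stromal cells had 2, 0, 90 and 0 UMIs, the 90 in 2 cells. Eomes-positive T cells had 0, 15, 0 and 80 UMIs, with 71 of the 80 in 1 cell. In αβT cells Spp1 had 12 and 0 UMIs at 30 °C and 34 and 124 at 4 °C, and it passed the threshold (3.24 ± 0.75, edgeR adjusted p = 0.0198). It did not pass without the filter on low counts (adjusted p = 0.119), DESeq2 gave it no adjusted p, and the 5 highest cells held 91.9% to 100% of these UMIs in each library that had any, so this call rests on 22 of the 5767 αβT cells. It did not pass the filter on low counts when the highest cell of each library was left out.

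**Figure D3:**
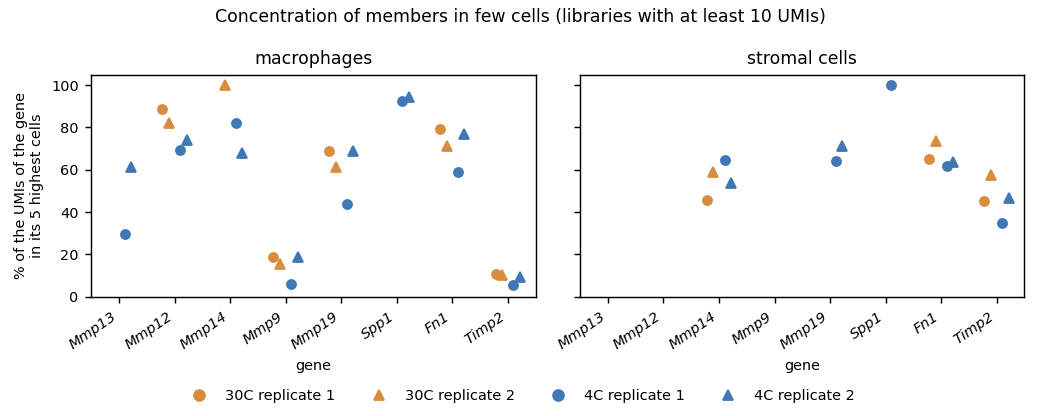
Percent of the UMIs of each gene (y axis) that stood in its 5 highest cells, in macrophages (left) and stromal cells (right), for each library with at least 10 UMIs of the gene. In macrophages Timp2 lay between 5.34% and 10.9% and Mmp9 between 6.06% and 18.9%, against 69.1% to 88.8% for Mmp12 and 92.3% and 94.3% for Spp1 at 4 °C.

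Counted over the fits, 4 of the 8 genes passed the edgeR threshold in all macrophages (adjusted p under 0.05), beside 15.1% of all 9476 genes tested. Mmp13, Spp1 and Mmp9 were the 3 higher, beside 7.55% of all genes, and Mmp19 the 1 lower, beside 7.51%. In Folr2-positive macrophages 4 passed the filter on low counts and 3 of them the threshold (18.5% of all genes, 9.7% higher and 8.84% lower), and in the Itgax or Trem2 positive group 5 and 0 (0.149%, and 2 at an unadjusted p under 0.05, 0 by DESeq2). In the other cell types fitted, none of 4 in stromal cells (0.254% of all genes called, 1 member at an unadjusted p under 0.05, 0 by DESeq2) and not the 1 tested in dendritic cells (1.86% of all genes called, 1.12% higher and 0.738% lower, 0 members at an unadjusted p under 0.05 and 0 by DESeq2) passed by edgeR, and 1 of 4 did in αβT cells (7.87%, 3.68% higher and 4.19% lower).

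**Figure D4:**
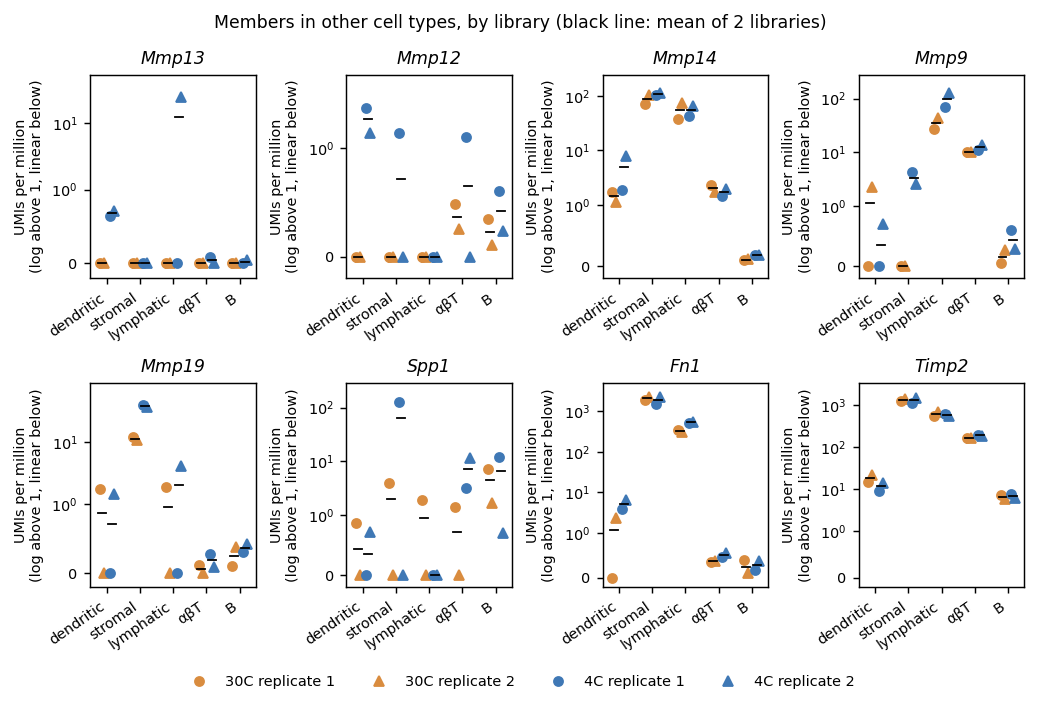
Level of each gene (CPM, log scale above 1) in dendritic, stromal, lymphatic endothelial, αβT and B cells, for the 2 libraries at 30 °C (orange) and the 2 at 4 °C (blue), with black lines at the means. Mmp19 in stromal cells stood at 12.1 and 10.5 in the warm and 39.9 and 36.1 CPM in the cold libraries, while Fn1 and Timp2 in stromal cells overlapped.

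The wider set of matrix genes was a list of 108 genes, 106 of them in the files: other metalloproteinases, inhibitors, ADAM and ADAMTS proteases, plasminogen activation, structural matrix, matricellular proteins and matrix receptors. In all macrophages 39 passed the filter on low counts, and by edgeR 3 rose and 10 fell at 4 °C (7.55% and 7.51% of all genes), with 8 past the threshold by DESeq2. Their median difference was -0.18 (log2), against -0.01 over all genes. In Folr2-positive macrophages 3 rose and 9 fell of 34 (9.7% and 8.84% of all genes), 6 passed by DESeq2, and the median was -0.13 against 0.00. Of the 15 other metalloproteinases in the list, none passed the filter on low counts in macrophages.

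Plau, urokinase, which turns plasminogen into a protease that activates metalloproteinases, had the largest rise of this list in macrophages. It stood at 5.04 and 2.99 CPM at 30 °C and 29.9 and 20.1 at 4 °C, a difference of 2.64 ± 0.36 (edgeR adjusted p = 0.00128). Its receptor Plaur fell in Folr2-positive macrophages, with 14 and 38 UMIs at 30 °C against 13 and 0 at 4 °C (-2.65 ± 0.56, adjusted p = 0.00201), and did not pass without 30 °C replicate 2 (adjusted p = 0.0901) or by DESeq2 (0.483). The integrin subunit Itgav (0.82 ± 0.21) and the sheddase Adam17 (0.55 ± 0.13) also rose in macrophages, with adjusted p of 0.0324 and 0.0213, and neither passed by DESeq2 (0.388 and 0.164). Without each library in turn Itgav did not pass (0.0611 to 0.149), nor did Adam17 without 30 °C replicate 1 (0.158), 30 °C replicate 2 (0.0526) or 4 °C replicate 2 (0.0535).

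In macrophages the largest falls among the genes of the list were in matricellular genes. Thbs1, thrombospondin 1, went from 22 and 26 UMIs to 1 and 3 (-4.16 ± 0.60, adjusted p = 0.00187). Cyr61, a secreted ligand of integrins, went from 31.9 and 51.4 CPM to 5.51 and 8.95 (-2.71 ± 0.33, adjusted p = 0.00068). The syndecan Sdc4 (-1.28 ± 0.11), the laminin chain Lamc1 (-1.20 ± 0.22) and the sheddase Adam8 (-1.39 ± 0.25) also fell, with adjusted p between 0.000129 and 0.00652. Without 30 °C replicate 1 neither Lamc1 (0.0527) nor Adam8 (0.0711) passed, and Lamc1 did not by DESeq2 (0.117).

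In Folr2-positive macrophages Adam8 fell from 45.9 and 28.6 CPM to 2.39 and 0 (-4.36 ± 0.51, adjusted p = 3.97e-06). In the Itgax or Trem2 positive group it was 383, 110, 128 and 68.6 CPM, and overlapped. The responses differed by 3.28 ± 0.61 (interaction in edgeR, adjusted p = 0.0306, where 0.194% of all genes were called), though not by DESeq2 (0.685). Adamts10 rose in Folr2-positive cells, from 2 and 3 UMIs to 28 and 15 (2.46 ± 0.57, adjusted p = 0.00434), but not by DESeq2 (0.156) or without 4 °C replicate 2 (0.0789).

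**Figure D5:**
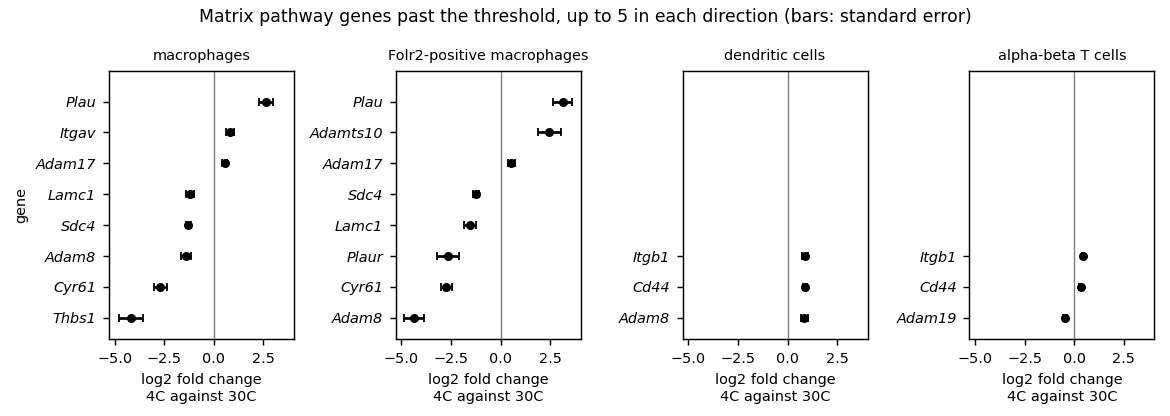
Difference between 4 °C and 30 °C (log2 fold change with its standard error, x axis) of genes of the wider matrix list past the edgeR threshold in 4 groups of cells, up to 5 in each direction. Plau lies at 2.64 and Thbs1 at -4.16 in all macrophages, and Cd44 and Itgb1 lie at 0.87 in dendritic cells.

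In dendritic cells 26 genes of the list were tested, and 3 rose and 0 fell by edgeR (1.12% and 0.738% of all genes), with 2 past the threshold by DESeq2. Cd44, the receptor of hyaluronan and osteopontin, went from 256 and 246 CPM to 487 and 476 (0.87 ± 0.11, adjusted p = 0.00131). The integrin chain Itgb1 went from 157 and 166 to 352 and 265 (0.87 ± 0.14, adjusted p = 0.00659), and Adam8 from 75.9 and 52.9 to 138 and 108 (0.85 ± 0.19, adjusted p = 0.0439). Adam8 did not pass without 30 °C replicate 2 (0.212) or 4 °C replicate 1 (0.143), or by DESeq2 (0.131). It rose in dendritic cells and fell in macrophages, a difference that was not tested. Mmp7, Mmp23 and Mmp25 were the 3 other metalloproteinases that passed the filter here, named after their values were seen, and none passed the threshold (adjusted p from 0.538 to 0.895).

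Itgb1 and Cd44 also rose in αβT cells. Itgb1 went from 200 and 180 CPM to 257 and 271 (0.43 ± 0.06, adjusted p = 0.00165), and Cd44 from 130 and 126 to 163 and 165 (0.31 ± 0.06, adjusted p = 0.00697). The protease Adam19 fell from 64.0 and 72.8 to 54.2 and 46.8 (-0.48 ± 0.09, adjusted p = 0.00617). In all, 2 rose and 1 fell of the 36 tested, near the share of all genes called in these cells (7.87%).

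Stromal cells had the most genes of the list above the filter, 88, and by edgeR none passed the threshold, with 24 at an unadjusted p under 0.05 and 0 by DESeq2. The median difference was 0.28 (log2) against 0.01 over all genes, and that of the 31 structural matrix genes 0.41. The summed 6 stromal marker genes stood at 17045, 25082, 31029 and 37034 CPM. Of these, Col3a1, Dcn, Col1a1, Col1a2 and Lum are also among the structural matrix genes, so this sum is not a separate measure. The part of the marker genes in these medians was not tested. Of the other metalloproteinases, Mmp2, Mmp3, Mmp23 and Mmp27 passed the filter, again named after their values were seen. Mmp2, the gelatinase that Mmp14 activates, stood at 382 and 596 CPM at 30 °C and 607 and 716 at 4 °C (0.50 ± 0.28, adjusted p = 0.543).

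Likeness of pattern was measured over 16 cell types by Pearson's r of log2 (CPM + 1), as a description in which the points share libraries. The genes most like Mmp13 were Msr1 (r = 0.98), a scavenger receptor, Ppfia4 (0.96) and Trim41 (0.95). Those most like Mmp12 were Sirpb1c (0.97), Vsig8 (0.97) and Pianp (0.94), and those most like Mmp19 were Lpl (0.97), lipoprotein lipase, Lrp1 (0.97) and Mitf (0.96). Mmp9 was most like Fam213b (0.94), Slc38a6 (0.93) and Lyve1 (0.93), a hyaluronan receptor of resident macrophages and lymphatic vessels. Mmp14 was most like Ctif (0.95), Zfp948 (0.95) and Fn1 (0.95), Fn1 like Fam149a (0.96), C3 (0.96) and Ctsk (0.95), and Timp2 like Iigp1 (0.96), Rnase4 (0.95) and Mafg (0.95). Spp1 had no gene above 0.76, the value of Igf2bp2, followed by Ahnak2 (0.75) and Gcsh (0.74).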

How the data were processed

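Single-cell libraries (10x 3' v3) came from 2 replicates per temperature. The deposited matrices hold UMI counts per gene and cell, made by the authors with Cell Ranger on mm10, without normalization. The header names Cell Ranger 3.0.0 and the submitters' processing notes 3.1.0. Counts were whole numbers.

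Cells with 100 genes or more, then over 200 and under 5000 genes and under 7.5% mitochondrial counts were kept, clustered in Seurat 5.3.0 (R 4.3.3, 2000 variable genes, 25 components, resolution 0.1, macrophages 0.3) and named from markers. Macrophage subclusters with B or T cell genes were left out. Groups used 1 UMI or more of Folr2, Itgax or Trem2.

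For each cell type the counts of a library's cells were added up, and all genes were fitted in edgeR 4.0.16 (TMM, filter on low counts, quasi-likelihood test, Benjamini-Hochberg adjustment over all genes tested, threshold 0.05). All adjusted p values are edgeR's unless DESeq2 1.42.0 is named. Each SE of a fitted difference was worked back, as its size over the square root of the edgeR F statistic. It can be too small where counts are near 0. Shares have 95% Clopper-Pearson intervals, exact tests used scipy 1.17.1, and Scrublet (scanpy 1.11.5) marked 1.87% to 2.66% of cells as doublets, which were kept. Intervals and floors cover counting error only. The fits were tested on simulated data.

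The 8 genes, the list of matrix genes and the markers were chosen with earlier results of these data known. Named genes of the list are up to 5 rises and 5 falls per fit, past the threshold and in the same direction in all pairs of libraries, and for each member the 3 genes of at least 100 UMIs most like it. Alternatives were other size factors, no filter on low counts, DESeq2, a replicate block, each library left out, under 5% mitochondrial counts, doublets left out, other groups of macrophages and, chosen after seeing the data, the highest cell left out. Each library pooled 4 mice, so p values measure the spread between pools.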

Additional observations from a re-analysis of the deposited data

Results flagged for a closer look

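Mmp19 moved in opposite directions in macrophages and stromal cells. The mean level was lower at 4 °C in macrophages by a difference of -35.5 CPM, with both cold libraries below both warm ones, and higher in stromal cells by 26.7 CPM, with both cold libraries above. The difference between these responses was not tested, and the stromal response alone did not pass the threshold.

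The response of Adam8 differed between the macrophage groups by 3.28 (log2, edgeR adjusted p = 0.0306). Over the alternatives the difference lay between 2.87 and 5.79 and the adjusted p between 3.73e-06 and 0.945, and it did not pass by DESeq2 (0.685), without 4 °C replicate 1 (0.441) or 2 (0.945), under 5% mitochondrial counts (0.224), or without cells with dendritic genes (0.0925).

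The macrophage subclusters with B or T cell genes, which no comparison used, held 112 cells. The 55 of them in the subcluster with T cell genes were led by the mast cell genes Mcpt4, Cma1, Cpa3 and Tpsb2. Over the 112 cells Mmp9 stood at 309 CPM at 4 °C on average against 190 at 30 °C, and Timp2 at 442 against 399. Both cold libraries were above both warm ones for each gene. Mmp13 had 0 and 4 UMIs there at 30 °C, the 4 in 1 cell, and 10 and 4 at 4 °C.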

How the results depend on the processing

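Without 30 °C replicate 1 the sign of Mmp12 turned in macrophages (1.27) and in the Itgax or Trem2 positive group (1.67), and that of Mmp19 in the latter (0.30). Against 1427 genes in macrophages, DESeq2 called 687 and fits without each library 673 to 1305; against 1563 in Folr2-positive macrophages, 591 and 818 to 1496. Against 7 in the Itgax or Trem2 positive group, no filter on low counts gave 134, DESeq2 12, groups by subcluster 53, cells with dendritic genes left out 1, and fits without each library 29 to 210. Against 146 in dendritic cells, no filter gave 423 and fits without each library 97 to 273. Against 16 in stromal cells, no filter gave 362, DESeq2 45, under 5% mitochondrial counts 5 and fits without each library 0 to 288. Against 884 in αβT cells, no filter gave 385, DESeq2 332 and fits without each library 734 to 1085. Against 16 for the difference between macrophage groups, other size factors gave 25, no filter 91, DESeq2 6, under 5% mitochondrial counts 2, doublets left out 28, cells with dendritic genes left out 6, groups by subcluster 120 and fits without each library 0 to 137. The share of Itgax or Trem2 positive macrophages differed by 2.15 to 7.24 points without each library. The causes were not tested. The sign of Fn1 in stromal cells turned without 4 °C replicate 1 (from -0.48 to 0.22 without each library), and that of Timp2 there with no filter (-0.016), by DESeq2 (-0.028), under 5% mitochondrial counts (-0.036) and without 30 °C replicate 1 or 4 °C replicate 2 (from -0.32 to 0.31 without each library), none past the threshold.

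The labels tie replicate numbers to no shared animal or day, and same-numbered libraries deviated together with correlations of -0.02 to 0.15 over genes, above 0.1 in 3 of the 6 comparisons. Whether the numbers mark a shared day or batch is not known, and with 2 pairs they were not treated as pairs. With the replicate number as a block the calls were 1709 in macrophages, 1753 in Folr2-positive and 0 in Itgax or Trem2 positive macrophages, 180 in dendritic, 120 in stromal and 1751 in αβT cells. With this block Timp2 differed by -0.0046 in stromal cells and passed in αβT cells (adjusted p = 0.0414). With 2 libraries a temperature and 16 to 57 cells a library, levels in the Itgax or Trem2 positive group rest on few cells.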
